A study of Mus musculus with 16 samples.

Results

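MiR-221 and miR-222 are a pair of related microRNAs (miRNAs) whose mature forms are cut from neighbouring hairpins on the X chromosome. The array used here carried 611 mouse miRNAs, and 2 of them belonged to this pair, miR-221-3p and miR-222-3p. They were chosen by name alone, as every row called mmu-miR-221 or mmu-miR-222 with or without an arm suffix. No 5p arm of either hairpin was among the rows. Both were measured in whole lung RNA of adult BALB/c mice (8 to 12 weeks old) in a model of allergic airways disease driven by ovalbumin (OVA), the egg white protein used as allergen.

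All mice received 1 mg of the adjuvant Alhydrogel by intraperitoneal injection on day 0 and intranasal challenges on days 12, 13, 14 and 15, and lungs were taken 24 hours after the last challenge. PBS/PBS mice (2 arrays) received no OVA, PBS/OVA mice (4 arrays) were sensitised without OVA and challenged with 10 μg of OVA, and OVA/OVA mice (6 arrays) were sensitised with 50 μg of OVA and challenged with 10 μg. OVA/OVA DEX mice (4 arrays) were treated as the OVA/OVA mice and were also injected with dexamethasone, a glucocorticoid that suppresses airway inflammation, at 3 mg/kg from day 11 on every second day, 1 hour before challenges. No group received dexamethasone without OVA. The labels number the arrays of a group without naming the animal, so p-values measure the spread between arrays, which may in part be technical.

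MiRNAs are short RNAs that guide a silencing complex to partly complementary messenger RNAs, mainly through the seed near their 5′ end. MiR-221 and miR-222 are made from a shared primary transcript and are best known for repressing the cell cycle inhibitor Cdkn1b (p27Kip1) and the receptor Kit. They are abundant in vascular cells and have been studied in smooth muscle growth and in mast cells, both of interest in asthma.

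The sequences of the pair are shown because they say which part of the 2 miRNAs is the same and which is not. The mature sequences from RefSeq (build GRCm38.p6) are written 5′ to 3′, with the seed, bases 2 to 8, in capitals. MiR-1928 is the only other mouse miRNA in that collection with this seed and was not on the array.

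miR-221-3p: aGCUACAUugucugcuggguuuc

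miR-222-3p: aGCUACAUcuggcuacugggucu

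miR-1928: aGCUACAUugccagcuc

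The 2 members were identical over their first 8 bases and, aligned from the first base without gaps, at 11 of 23 positions. MiR-221-3p lies at chrX:19146307-19146329 and miR-222-3p at chrX:19146901-19146923, both on the minus strand. The hairpins follow with the measured 3p arm in capitals. Mir221 spans chrX:19146294-19146388 and Mir222 chrX:19146893-19146971, with 504 bases between them, and the RefSeq gene table placed no other gene over this stretch.

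Mir221: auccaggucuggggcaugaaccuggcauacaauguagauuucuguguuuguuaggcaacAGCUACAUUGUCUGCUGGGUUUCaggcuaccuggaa

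Mir222: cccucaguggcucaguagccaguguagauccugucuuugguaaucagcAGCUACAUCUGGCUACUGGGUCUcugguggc

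Between 224 and 301 of the 611 miRNAs were detected per array, and no spot was saturated. The arrays differed in brightness, the signal summed over all mouse miRNAs, which was 251350 to 733489 units on OVA/OVA arrays, 499733 to 638811 on OVA/OVA DEX arrays, 493063 to 718149 on PBS/OVA arrays and 793227 to 940050 on the PBS/PBS pair. Signals were therefore scaled by each array's 75th percentile among the 206 miRNAs that all 16 arrays detected, and levels below are log2 of this scaled signal. There were 2 slides, and the PBS/PBS group was on slide 1 only. The markers of the tissue listed for comparison were measured: 2 endothelial, 3 smooth muscle and 5 epithelial miRNAs passed the detection filter.

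MiR-221-3p was detected on all 16 arrays and varied little. Its log2 scaled signal was 9.20 and 9.16 in PBS/PBS, and 9.34, 9.48, 9.42 and 9.31 in PBS/OVA. In OVA/OVA it ranged from 9.16 through a median of 9.28 to 9.54, and in OVA/OVA DEX it was 9.55, 9.22, 9.13 and 9.20. All 4 PBS/OVA values were higher than the PBS/PBS pair, while every other pair of groups overlapped. With 2 arrays against 4, such a separation gives an exact Mann-Whitney p of only 0.133. The share of all miRNAs tested that separated in this way is not given, so nothing is read from it. From lowest to highest the group means were 9.18 ± 0.03 (SD, n = 2) for PBS/PBS, 9.28 ± 0.19 (SD, n = 4) for OVA/OVA DEX, 9.31 ± 0.13 (SD, n = 6) for OVA/OVA and 9.39 ± 0.08 (SD, n = 4) for PBS/OVA. Neighbours in this order were not separated by the tests given below.

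MiR-222-3p was also detected on all 16 arrays, and its arrays spread most in the OVA/OVA group. Its log2 scaled signal was 7.47 and 7.65 in PBS/PBS, and 7.79, 7.64, 7.90 and 7.83 in PBS/OVA. The 6 OVA/OVA arrays, in the order of their replicate numbers, stood at 7.97, 8.81, 8.40, 7.77, 7.57 and 8.67, with a median of 8.18. The OVA/OVA DEX arrays stood at 8.02, 7.74, 7.65 and 7.71. OVA/OVA replicates 2, 3 and 6 were above every array of the other groups, and OVA/OVA replicates 1, 4 and 5 lay among or below them. The group means ran from 7.56 ± 0.13 (SD, n = 2) for PBS/PBS through 7.78 ± 0.17 (SD, n = 4) for OVA/OVA DEX and 7.79 ± 0.11 (SD, n = 4) for PBS/OVA to 8.20 ± 0.50 (SD, n = 6) for OVA/OVA. Again no neighbours in the order were separated by a test. All 4 OVA/OVA DEX values were higher than the PBS/PBS pair, the closest being 7.651 against 7.646 (exact Mann-Whitney p = 0.133), and all other pairs of groups overlapped. Nothing is read from this separation either, as the share over all miRNAs tested is not given.

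**Figure D1:**
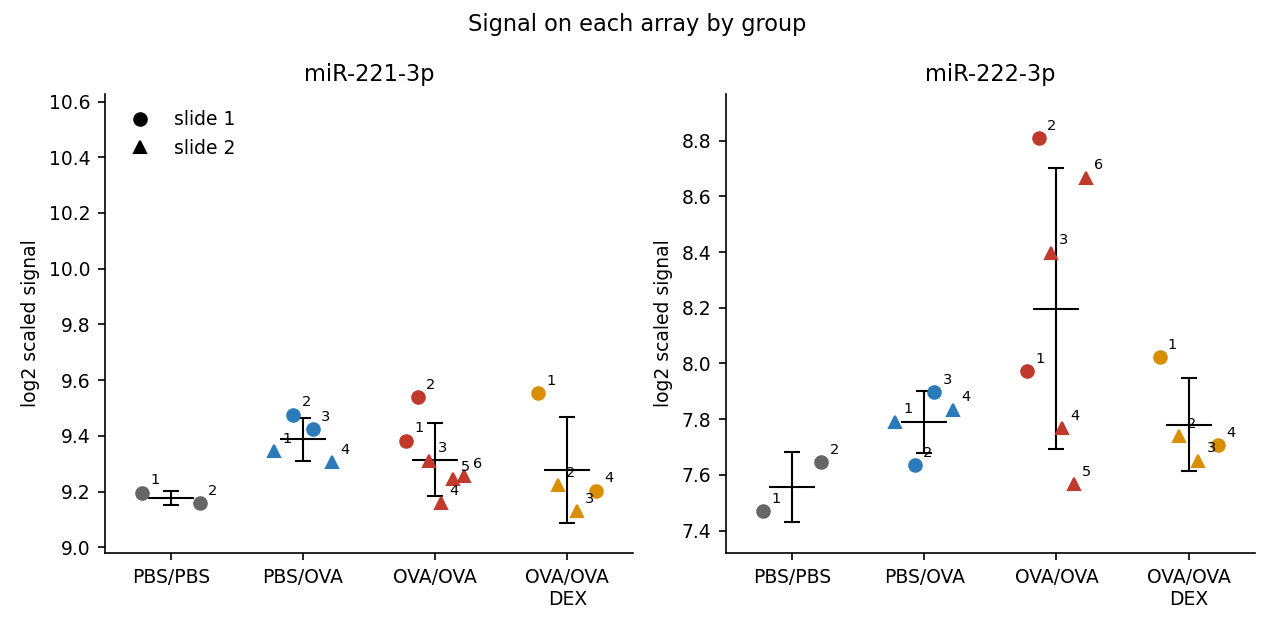
Log2 scaled signal of miR-221-3p and miR-222-3p on each of the 16 arrays, by group, with both vertical axes spanning the same number of log2 units. Numbers are replicate numbers, circles and triangles mark slide 1 and slide 2, and black lines give the group mean ± SD. MiR-222-3p reaches 8.81 on OVA/OVA replicate 2 and falls to 7.57 on OVA/OVA replicate 5, while all miR-221-3p values lie between 9.13 and 9.55.

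The spread of miR-222-3p within the OVA/OVA group, an SD of 0.50 on the log2 scale, was larger than that of 77.1% of the 266 miRNAs tested, whose median SD in this group was 0.22. The SD of miR-221-3p on the same arrays, 0.13, was larger than that of only 28.2% of them. In PBS/OVA the SDs of miR-221-3p and miR-222-3p were 0.08 and 0.11, against a median of 0.17 over the miRNAs tested. The SD of miR-222-3p in OVA/OVA DEX, 0.17, was larger than that of 39.1% of them. For the 2 PBS/PBS arrays it was 0.13 against a median of 0.05, larger than that of 79.3%. A high rank was thus not particular to OVA/OVA. Whether the scatter of miR-222-3p differed between groups was not tested.

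Group differences were fitted with limma over the 266 miRNAs tested, with Benjamini-Hochberg adjustment, and a difference passed at an adjusted p under 0.05. Of the 12 differences of the pair, 2 miRNAs in 6 comparisons, 0 passed. With an unadjusted limma p under 0.05 there was 1, miR-222-3p in OVA/OVA against PBS/PBS. In that comparison 110 of the 266 miRNAs tested had an unadjusted p under 0.05. By the exact Mann-Whitney test 0 of the 12 passed after adjustment and 0 had an unadjusted p under 0.05. In that test 2 arrays against 4 or 6 cannot give a p under 0.133 or 0.0714. With 4 arrays against 6 or 4 it can reach 0.00952 or 0.0286. Of all 266 miRNAs tested, 52 passed it after adjustment in OVA/OVA against PBS/OVA and 114 in OVA/OVA against OVA/OVA DEX. In the remaining comparisons 0 passed it. The share of all miRNAs tested that passed by limma was 0.376% in PBS/OVA against PBS/PBS, 25.6% in OVA/OVA against PBS/PBS, 31.6% in OVA/OVA against PBS/OVA, 53.4% in OVA/OVA against OVA/OVA DEX, 0% in OVA/OVA DEX against PBS/PBS and 2.26% in OVA/OVA DEX against PBS/OVA. Many lung miRNAs were therefore called in the OVA/OVA comparisons, and neither miR-221-3p nor miR-222-3p was among them.

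The first question of the design is what sensitisation and challenge did, given by OVA/OVA against PBS/PBS. MiR-222-3p was 0.64 higher in OVA/OVA on the log2 scale, or 1.56-fold, with a 95% confidence interval from 1.04-fold to 2.32-fold and an adjusted p of 0.0895 by limma. MiR-221-3p differed by 0.14, or 1.10-fold, with an interval from 0.93-fold to 1.30-fold and an adjusted p of 0.364 by limma. The interval of miR-221-3p holds differences no larger than 1.30-fold upward, while that of miR-222-3p reaches beyond a doubling.

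The second question is what sensitisation added to OVA challenge, given by OVA/OVA against PBS/OVA. MiR-222-3p was 0.41 higher on the log2 scale (1.33-fold, interval 0.97-fold to 1.82-fold, limma adjusted p = 0.149). MiR-221-3p was lower by 0.07 (difference -0.07, 0.95-fold, interval 0.83-fold to 1.09-fold, limma adjusted p = 0.545). Challenge without sensitisation, PBS/OVA against PBS/PBS, gave log2 differences of 0.21 for miR-221-3p and 0.23 for miR-222-3p, both with a limma adjusted p of 0.997. For miR-221-3p this was the largest of its 6 differences.

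The third question is the effect of dexamethasone in allergic mice. Mean miR-222-3p was 0.42 higher in OVA/OVA than in OVA/OVA DEX on the log2 scale (1.33-fold, interval 0.97-fold to 1.83-fold, limma adjusted p = 0.112). MiR-221-3p differed by 0.04 (1.03-fold, interval 0.90-fold to 1.17-fold, limma adjusted p = 0.746). OVA/OVA DEX stood close to both control groups: miR-222-3p differed from PBS/OVA by -0.01 with an interval from -0.51 to 0.49, and from PBS/PBS by 0.22 with an interval from -0.39 to 0.83. The corresponding differences of miR-221-3p were -0.11 (interval -0.32 to 0.10) and 0.10 (interval -0.16 to 0.36). Over all 4 groups at once the limma F-test gave an adjusted p of 0.468 for miR-221-3p and 0.141 for miR-222-3p, where 44.0% of the miRNAs tested passed.

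**Figure D2:**
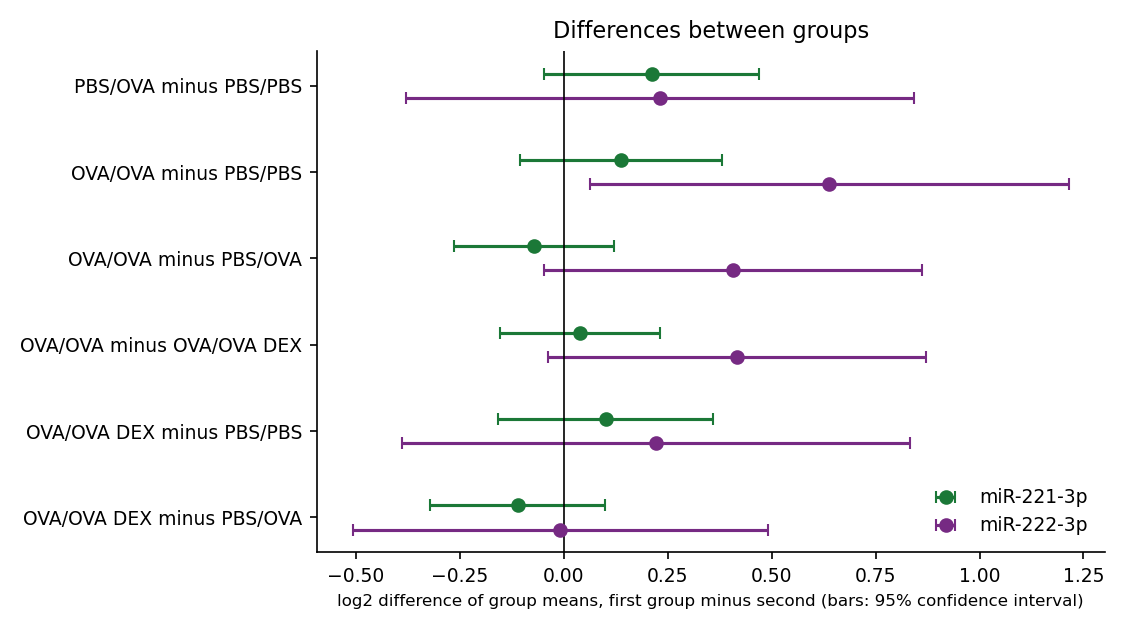
Log2 differences of group means for miR-221-3p and miR-222-3p in the 6 comparisons, first group minus second, as points with 95% confidence intervals from limma. The interval that leaves 0 out is that of miR-222-3p in OVA/OVA minus PBS/PBS, from 0.06 to 1.22, which has an adjusted p of 0.0895.

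Leaving out 1 array could change how the miR-222-3p tests came out. Without OVA/OVA replicate 5, where miR-222-3p was lowest of that group, the excess over OVA/OVA DEX passed (0.54, limma adjusted p = 0.0259), as did that over PBS/OVA (0.53, limma adjusted p = 0.0415) and that over PBS/PBS (0.76, limma adjusted p = 0.0271), and the adjusted p of the F-test was 0.0348. Without any other single array no difference of miR-222-3p passed. The nearest was 0.72 against PBS/PBS without OVA/OVA replicate 4 (limma adjusted p = 0.0501). Leaving out the lowest array of a group raises its mean by construction. No difference of miR-221-3p passed without any 1 array.

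The 3 arrays with the highest scaled miR-222-3p were dim ones. Scaling factors, each array's 75th percentile relative to the geometric mean of all, were 0.79, 0.52 and 0.48 on OVA/OVA replicates 2, 3 and 6. OVA/OVA replicate 5 was dim too, with a factor of 0.65, and had the lowest miR-222-3p of the group. Before scaling, the miR-222-3p signals of the 6 OVA/OVA arrays were 340, 355, 176, 304, 124 and 195 units, against 272 and 373 in PBS/PBS. Before scaling, OVA/OVA replicates 1, 2 and 4 thus lay between the 2 PBS/PBS arrays and replicates 3, 5 and 6 below them, so the scaled excess of miR-222-3p is relative to the other miRNAs of an array. Unscaled miR-221-3p was 293 to 903 units in OVA/OVA and 900 and 1065 in PBS/PBS. With array brightness as a covariate, an alternative chosen once the values were known, the miR-222-3p difference in OVA/OVA against PBS/PBS was 0.32 (limma adjusted p = 0.655).

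The choice of scaling moved both miRNAs together with the rest of the array. Against PBS/PBS, miR-221-3p in OVA/OVA was 0.14 higher with the scaling used here, but -0.15 by quantile normalization, -0.40 when all 611 miRNAs set the percentile and -0.96 without scaling. MiR-222-3p was 0.64, 0.44, 0.10 and -0.46 under the same settings. The median of all miRNAs tested moved as well, from -0.02 to -0.19, -0.56 and -1.11. Relative to that median miR-222-3p stood at 0.66, 0.63, 0.66 and 0.66. The last 2 settings shift each array as a whole, so by construction their positions had to stay near the first. Normexp background correction differed in kind: the median rose to 0.54, miR-222-3p was 0.70 (limma adjusted p = 0.0253, past the threshold) and stood only 0.16 above the median.

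**Figure D3:**
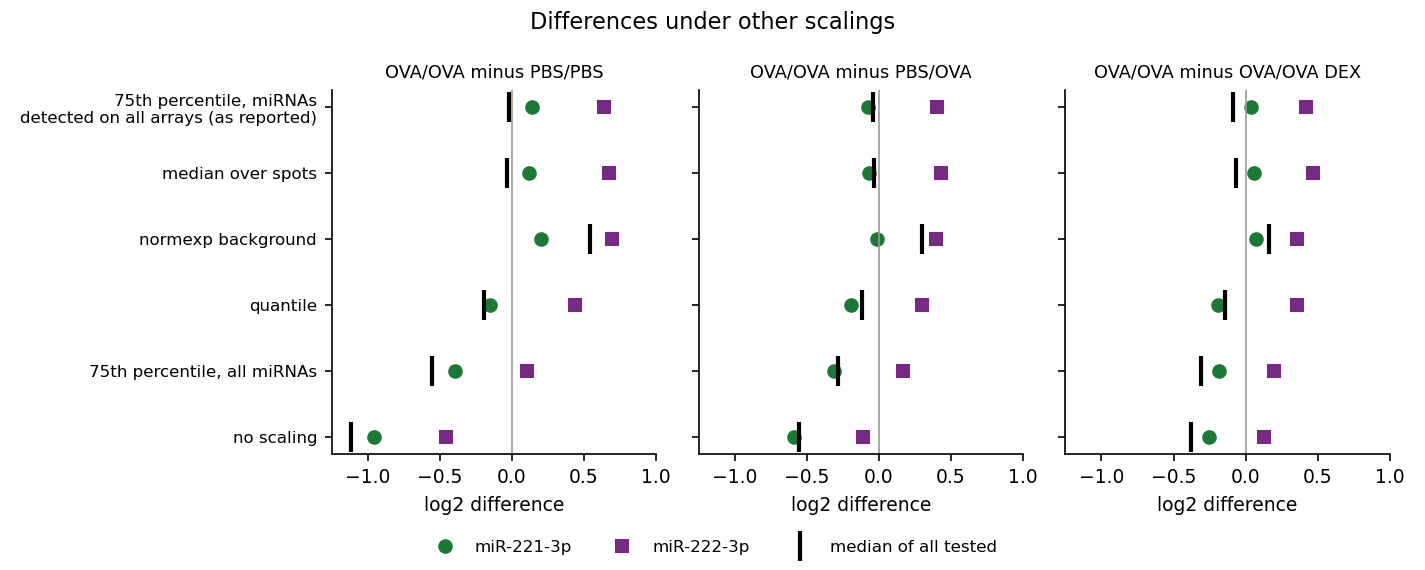
Log2 differences of miR-221-3p (circles), miR-222-3p (squares) and the median of all miRNAs tested (black bars) for OVA/OVA minus each other group under 6 ways of summarising and scaling the arrays. MiR-222-3p lies to the right of the median in every row, by 0.66 against PBS/PBS as reported and by 0.16 with normexp, whereas miR-221-3p against PBS/PBS lies on either side of 0 depending on the row.

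By the means of the groups on each slide, miR-222-3p was highest in OVA/OVA on both. Against PBS/PBS, within slide 1 alone, it was 0.83 higher in OVA/OVA (limma adjusted p = 0.112), and no PBS/PBS array lay on slide 2. Against PBS/OVA it was 0.62 higher within slide 1 and 0.29 within slide 2, and against OVA/OVA DEX 0.53 and 0.40, with limma adjusted p from 0.212 to 0.525 over these 4 values. With slide as a block the 3 differences were 0.74, 0.43 and 0.44, none passing. For miR-221-3p the block gave 0.07 relative to OVA/OVA DEX, -0.04 relative to PBS/OVA and 0.26 relative to PBS/PBS (limma adjusted p = 0.058), and within slide 1 the difference from PBS/OVA turned to 0.01. The small miR-222-3p difference of OVA/OVA DEX from PBS/OVA was 0.10 within slide 1 and -0.12 within slide 2.

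Each miRNA was read by 2 different probes with 10 spots each, so the array pattern could be looked at with each probe on its own. For miR-222-3p, probe A_54_P2643 gave a log2 difference of 0.79 between OVA/OVA and PBS/PBS and probe A_54_P2644 gave 0.55. Both probes had OVA/OVA replicates 2, 3 and 6 as their 3 highest arrays. On replicate 2 they stood 1.01 and 0.83 above their own means over 16 arrays, and on replicate 6 they stood 0.93 and 0.64 above. Across the 16 arrays the log2 signals of both miR-222-3p probes correlated with r = 0.96, and those of both miR-221-3p probes with r = 0.71, a description over arrays that share their scaling.

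Replicate spots varied little for miR-221-3p and more for miR-222-3p. The median coefficient of variation over the spots of a probe was 4.52% and 4.22% for the miR-221-3p probes A_54_P2640 and A_54_P3830. It was 11.4% for the miR-222-3p probe A_54_P2643 and 20.03% for A_54_P2644. On OVA/OVA replicate 5, the array without which the miR-222-3p tests passed, the coefficient of A_54_P2644 was 44.1%. There 3 of its 10 spots were more than 2-fold below the probe's median. On that array 18 of the 20 miR-222-3p spots were well above background, against 20 of 20 on each other array. Probe A_54_P2643 was also low on this array, at -0.35 from its own mean, without any such spot. On OVA/OVA DEX replicate 4 the coefficients of A_54_P3830 and A_54_P2644 were 36.3% and 42.6%, and the miR-221-3p probes parted there, A_54_P2640 at 0.14 and A_54_P3830 at -0.26 from their own means. With the median over spots in place of the mean, likewise chosen once the values were known, miR-222-3p differed by 0.67 from PBS/PBS (limma adjusted p = 0.0596) and by 0.46 from OVA/OVA DEX (limma adjusted p = 0.065).

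**Figure D4:**
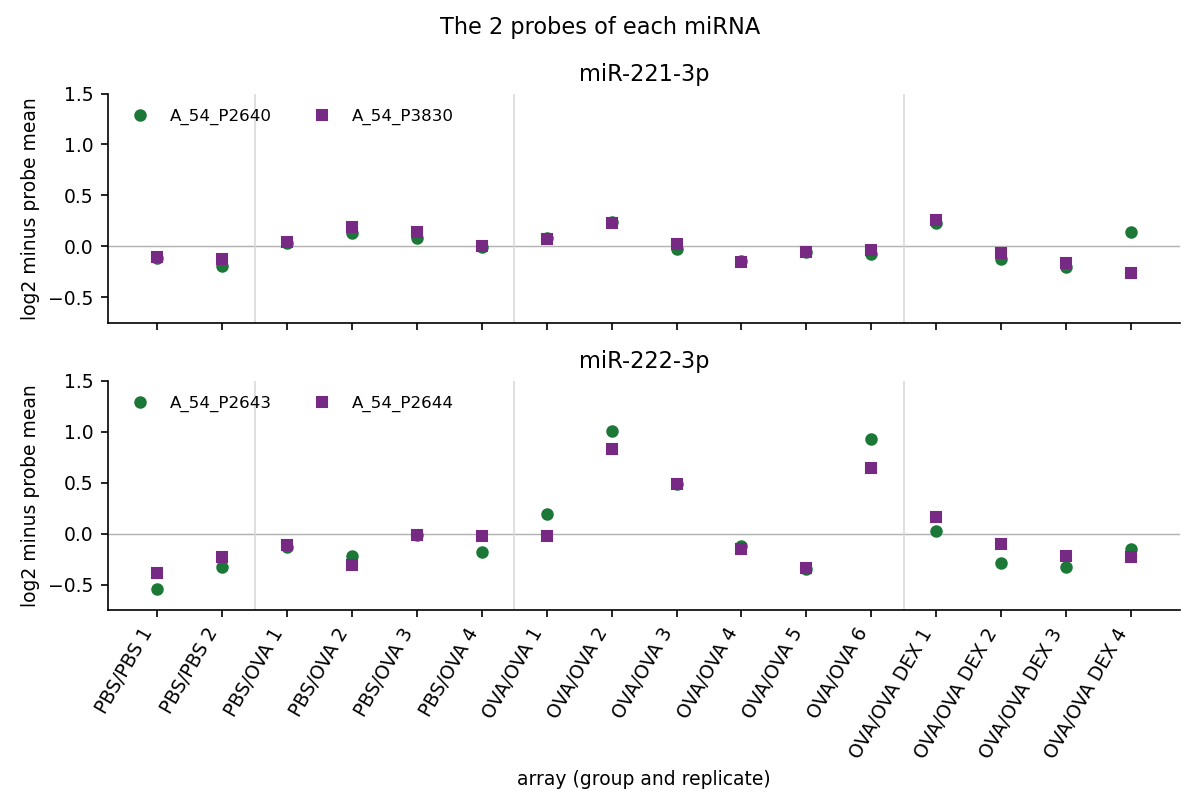
Log2 scaled signal of each probe on each array, minus that probe's mean over the 16 arrays, for miR-221-3p (upper panel) and miR-222-3p (lower panel). Both miR-222-3p probes are highest on OVA/OVA replicates 2, 3 and 6, and the miR-221-3p probes separate on OVA/OVA DEX replicate 4, at 0.14 and -0.26.

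Because both miRNAs come from a shared transcript, the pair was also followed as the difference of log2 miR-222-3p minus log2 miR-221-3p on each array, which does not depend on the scaling factor. Each miRNA has its own probes, so only the change of this difference between groups can be read, not its level. Its mean was -1.12 ± 0.44 (SD, n = 6) for OVA/OVA, -1.50 ± 0.02 (SD, n = 4) for OVA/OVA DEX, -1.60 ± 0.17 (SD, n = 4) for PBS/OVA and -1.62 ± 0.15 (SD, n = 2) for PBS/PBS. The 6 OVA/OVA arrays stood at -1.41, -0.73, -0.91, -1.39, -1.68 and -0.59. The 4 OVA/OVA DEX arrays lay between -1.53 and -1.48, a narrow band inside the OVA/OVA range.

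MiR-222-3p thus moved more than miR-221-3p in OVA/OVA by the group means, by 0.38 on the log2 scale relative to OVA/OVA DEX, 0.48 relative to PBS/OVA and 0.50 relative to PBS/PBS. These differences did not hold up against the spread between arrays: two-sided exact permutation tests gave p = 0.171, 0.0857 and 0.143, each 0.343 after adjustment over the 6 comparisons. For 2 arrays against 6 the smallest p that this test allows is 0.0714, and for 4 against 6 it is 0.00952. The other 3 comparisons gave 0.02, 0.12 and 0.10, with adjusted p by the exact test of 1, 0.343 and 0.343. Without OVA/OVA replicate 5 the pair's change was 0.49 relative to OVA/OVA DEX and 0.59 relative to PBS/OVA, each with an adjusted exact p of 0.0476.

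Within the OVA/OVA group the relation between the 2 miRNAs did not hold up in a test. Pearson's r over the 6 arrays was 0.61 (exact permutation p = 0.194) and Spearman's rho was 0.71 (exact permutation p = 0.136), the only relation tested. Over the 4 arrays left without the 2 farthest from the median of miR-221-3p, r was -0.04. The value also moved with the scaling, to 0.13 by quantile normalization, 0.51 when all miRNAs set the percentile and 0.78 without scaling, with exact permutation p from 0.10 to 0.80. Over all 16 arrays the 2 members correlated with r = 0.46. Among the other 205 miRNAs detected on every array, miR-222-3p ranked 13 by its correlation with miR-221-3p, and miR-221-3p ranked 50 by its correlation with miR-222-3p.

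**Figure D5:**
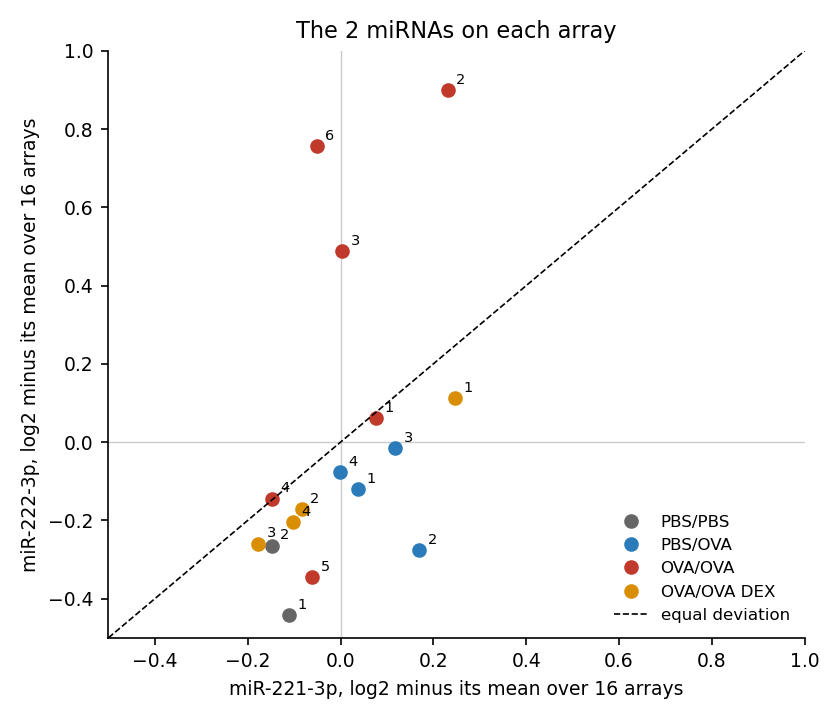
MiR-222-3p against miR-221-3p on each array, both as log2 scaled signal minus the miRNA's own mean over 16 arrays, with replicate numbers beside the points and a dashed line of equal deviation. OVA/OVA replicates 2, 3 and 6 stand 0.90, 0.49 and 0.76 up in miR-222-3p and 0.23, 0.00 and -0.05 in miR-221-3p, well above the line, OVA/OVA replicate 4 lies almost on it and the other 12 arrays lie below it.

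The miRNAs whose array pattern was most like that of each member, among the 206 detected on all arrays, were different for the 2 members. For miR-221-3p they were miR-99b-5p (r = 0.70), miR-27b-3p (r = 0.68) and miR-484 (r = 0.66), and after subtracting group means r was 0.85, 0.70 and 0.69. For miR-222-3p they were miR-494-3p (r = 0.85), miR-17-3p (r = 0.81) and miR-19a-3p (r = 0.78), and after subtracting group means r was 0.82, 0.79 and 0.72. All of these are descriptions over 16 arrays that share scaling and brightness.

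MiR-494-3p, which was most like miR-222-3p, put the 6 OVA/OVA arrays in the same order, at 8.11, 11.28, 9.32, 7.23, 5.88 and 10.39 by replicate number. It thus spanned 5.88 to 11.28 where miR-222-3p spanned 7.57 to 8.81. Mean miR-494-3p was 3.20 higher in OVA/OVA than in OVA/OVA DEX on the log2 scale (limma adjusted p = 0.0141) and 2.76 higher than in PBS/PBS (limma adjusted p = 0.104). MiR-17-3p and miR-19a-3p are both made from the miR-17 cluster, which is known for promoting proliferation. Against PBS/PBS they rose by 0.66 and 0.66 in OVA/OVA, with limma adjusted p of 0.00921 and 0.00483, but without scaling both differences were -0.44. Their differences were of the same size as that of miR-222-3p, 0.64, while their 6 OVA/OVA arrays spread only from 6.83 to 7.43 and from 9.13 to 9.71.

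Lists of other lung miRNAs give the setting of these values. Of the 5 haematopoietic miRNAs 4 rose in OVA/OVA against OVA/OVA DEX, 5 against PBS/OVA and 3 against PBS/PBS. Their median log2 differences were 0.57, 0.66 and 0.47 in these comparisons, beside -0.09, -0.04 and -0.02 over all miRNAs tested, of which 21.1%, 14.7% and 13.2% rose. MiR-223-3p, a miRNA of myeloid cells, rose by 1.22 against PBS/PBS (limma adjusted p = 0.00112), and miR-142-3p, found throughout blood cells, rose by 0.92 (limma adjusted p = 0.00674). Without scaling 0 of 5 passed in any of the 3 comparisons, and the list's median against PBS/PBS was -0.62. Over all 266 miRNAs tested 13, 0 and 3 rose in that setting, with a median of -1.11 against PBS/PBS. In bulk lung, more cells of a type and more RNA per cell cannot be told apart, and this holds for miR-221-3p and miR-222-3p too.

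Of the 6 miRNAs listed for immune activation 4 rose in OVA/OVA against OVA/OVA DEX, 3 against PBS/OVA and 3 against PBS/PBS, with median log2 differences of 0.82, 0.36 and 0.77, beside the same 21.1%, 14.7% and 13.2% of all miRNAs. Not every listed miRNA was higher. In these comparisons 6, 5 and 5 of the 6 differences were above 0, the lowest were 0.06, -0.29 and -0.21, and 0 passed as lower. MiR-155-5p, which is induced in activated leukocytes, rose by 1.99 against PBS/PBS (limma adjusted p = 0.00184) and was 2.60 above OVA/OVA DEX (limma adjusted p = 1.65e-05). MiR-21-5p, another miRNA induced in inflammation, rose by 1.48 and stood 1.448 above OVA/OVA DEX (limma adjusted p = 0.000777 and 4.32e-05). Of the 6 miRNAs of the miR-17 cluster 3, 4 and 3 rose in the same order of comparisons, with medians of 0.30, 0.46 and 0.40, beside those shares. Without scaling 2, 0 and 0 miRNAs of immune activation and 0, 0 and 0 of the miR-17 cluster rose in these comparisons. Against PBS/PBS 1 of immune activation fell, and the medians turned to -0.33 and -0.69. Over all 266 miRNAs tested, 13, 0 and 3 rose without scaling, and against PBS/PBS 156 fell, with a median of -1.11.

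The miRNAs listed for vascular and muscle cells, in which miR-221 and miR-222 are known to be abundant, were lower in OVA/OVA. Both endothelial miRNAs, the arms of miR-126, fell against OVA/OVA DEX (median -0.59) and against PBS/OVA (median -0.39), and 0 of 2 passed against PBS/PBS (median -0.38). Of all miRNAs tested 32.3%, 16.9% and 12.4% fell in these comparisons. MiR-126-3p fell by 0.30 against OVA/OVA DEX (limma adjusted p = 0.0085) and by 0.24 against PBS/OVA (limma adjusted p = 0.0407). Without scaling 0 of 2 passed in either comparison, and when all miRNAs set the percentile 0 of 2 passed against PBS/OVA. Of the 266 miRNAs tested, 10 and 2 fell in these comparisons without scaling, and 12 against PBS/OVA in the other setting. Against PBS/PBS both arms fell by quantile normalization, with normexp, without scaling and when all miRNAs set the percentile. Those settings had 31, 21, 156 and 125 of the 266 lower there. All 3 smooth muscle miRNAs fell against OVA/OVA DEX, miR-143-3p by 0.31 (limma adjusted p = 0.00775) and miR-145-5p by 0.45 (limma adjusted p = 0.015), while 0 of 3 passed against PBS/PBS or PBS/OVA. Against OVA/OVA DEX only 1 of the 3 fell by quantile normalization, 1 with normexp (median -0.019 in place of -0.45) and 0 without scaling. Of the 266 miRNAs tested 59, 32 and 10 fell there in these settings, and with normexp their median was 0.16. With normexp the smooth muscle median against PBS/PBS turned from -0.20 to 0.42, with 1 of 3 higher. In that setting the median of all 266 miRNAs tested was 0.54 against PBS/PBS, above that of the smooth muscle list. Of the 266, 164 passed there, and 21 of these were lower.

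The epithelial list had 1 of 5 higher in each of the 3 comparisons and 1 lower against OVA/OVA DEX. Of all miRNAs tested 21.1%, 14.7% and 13.2% rose against OVA/OVA DEX, PBS/OVA and PBS/PBS, and 32.3% fell against OVA/OVA DEX. The median of the epithelial list was -0.09 against OVA/OVA DEX, which turned to 0.16 by quantile normalization. The summed signal of the endothelial list was 14.90 to 15.32 on the log2 scale in the OVA/OVA group, against 15.31 to 15.56 after dexamethasone. That of the haematopoietic list was 15.00 to 15.56 and 14.17 to 14.73 in the same groups. The part of these cell types in the levels of miR-221-3p and miR-222-3p was not tested.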

How the data were processed

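Total RNA of 16 lung samples was hybridised to 1-colour Agilent mouse miRNA arrays and read with Agilent Feature Extraction 10.7.3.1 by the authors, who deposited the processed spot intensity, background-subtracted and not normalized between arrays, with detection and outlier flags, and a table of processed log2 values. The log2 values deposited were matched to the scanner files array by array for 177 miRNAs within 0.15; the column medians ran from -7.7 to -5.7, the scaling behind it is unknown, and it served as an alternative. Spots without outlier flags were averaged per probe and probes summed per miRNA. Signals of an array were scaled to the 75th percentile among the 206 miRNAs that every array detected, and signals were set to at least 1.71 units and put on the log2 scale. The 266 miRNAs tested passed a detection filter. Differences were fitted with limma 3.58.1 in R 4.3.3 (lmFit and eBayes, 4 groups, no covariate). In data simulated for OVA/OVA against PBS/PBS, 42 of 50 changed miRNAs were recovered. The changes put in were larger than any difference of miR-221-3p or miR-222-3p, and the simulated arrays did not differ in brightness. This recovery therefore says nothing about differences of their size. The exact tests were run in scipy 1.17.1. Sample groups came from the labels. The members, the lists and the rule for named miRNAs (both members, miRNAs sharing their seed, the 3 most alike by Pearson's r, 7 listed markers) were chosen with earlier results of these data known. The normexp alternative used an offset of 50 on median spot signals.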

Additional observations from a re-analysis of the deposited data

How the results depend on the processing

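Values here are log2 differences unless said otherwise. Without scaling, miR-221-3p turned to -0.37 in PBS/OVA minus PBS/PBS, -0.96 in OVA/OVA minus PBS/PBS, -0.25 in OVA/OVA minus OVA/OVA DEX and -0.71 in OVA/OVA DEX minus PBS/PBS, and miR-222-3p to -0.35 in PBS/OVA minus PBS/PBS, -0.46 in OVA/OVA minus PBS/PBS, -0.11 in OVA/OVA minus PBS/OVA and -0.58 in OVA/OVA DEX minus PBS/PBS. With the 75th percentile over all miRNAs, miR-221-3p turned to -0.083, -0.40, -0.18 and -0.21 in those 4 comparisons, and miR-222-3p to -0.063 in PBS/OVA minus PBS/PBS and -0.092 in OVA/OVA DEX minus PBS/PBS. With quantile normalization miR-221-3p turned to -0.15 in OVA/OVA minus PBS/PBS and -0.19 in OVA/OVA minus OVA/OVA DEX. The first 2 of these settings shift each array as a whole by construction. With normexp, miR-222-3p passed in OVA/OVA minus PBS/PBS (0.70); its near-zero OVA/OVA DEX minus PBS/OVA turned to 0.045 with normexp, 0.05 in the deposited values and 0.10 within slide 1, and miR-221-3p in OVA/OVA minus PBS/OVA to 0.0094 within slide 1. In the deposited values the pair's change in PBS/OVA minus PBS/PBS turned to -0.025. The cause of these last changes was not tested. Leaving out 1 array at a time, miR-221-3p in OVA/OVA minus OVA/OVA DEX ranged from -0.012 to 0.13, and miR-222-3p from 0.52 to 0.76 against PBS/PBS, 0.28 to 0.53 against PBS/OVA, 0.29 to 0.54 against OVA/OVA DEX and -0.090 to 0.034 in OVA/OVA DEX minus PBS/OVA. The pair's change ranged from -0.087 to 0.13 in PBS/OVA minus PBS/PBS, 0.37 to 0.59 in OVA/OVA minus PBS/OVA and 0.27 to 0.49 in OVA/OVA minus OVA/OVA DEX. The highest values of miR-222-3p in the 3 OVA/OVA comparisons, and of the pair relative to PBS/OVA and OVA/OVA DEX, came without OVA/OVA replicate 5 and passed. Where 1 PBS/PBS array was left out, the other was taken to vary like the remaining groups. Of the alternatives run on the 12 differences other than leaving out 1 array, 213 kept direction and side of the threshold, 20 turned and 1 came to pass. With 1 array left out these counts were 182, 7 and 3. Many of those that kept both repeat the reported difference by construction. They leave out an array of neither group compared, or change only the floor, the filter or the test.

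Over the alternatives the number of all miRNAs passing ranged from 0 to 3 in PBS/OVA minus PBS/PBS (1 as reported), 12 to 164 in OVA/OVA minus PBS/PBS (68), 0 to 103 in OVA/OVA minus PBS/OVA (84), 23 to 156 in OVA/OVA minus OVA/OVA DEX (53.4% of those tested), 0 to 4 in OVA/OVA DEX minus PBS/PBS (0) and 0 to 16 in OVA/OVA DEX minus PBS/OVA (6). In OVA/OVA minus PBS/PBS 35 were higher and 33 lower as reported, 3 and 156 without scaling, and with normexp 164 passed, of which 21 were lower. Replicate numbers did not pair the arrays: correlations of same-numbered arrays ran from -0.78 to 0.41, and 0 of 16 arrays correlated best with their own number. With the replicate block miR-222-3p was 0.74 in OVA/OVA minus PBS/PBS (limma adjusted p = 0.0676), 68 calls there became 52, and no difference of either miRNA changed its call.

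The number of arrays, 2 in PBS/PBS, limits the precision, and the interval of miR-222-3p in OVA/OVA minus PBS/PBS runs from 1.04-fold to 2.32-fold. All of these values are relative to the other miRNAs of an array.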
